A study of Mus musculus with 36 samples.

Results

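Liver RNA from old mice, 18 months of age, was compared with liver RNA from young mice, 4 months of age, at the point of regeneration that the labels call 72. The comparison took every library whose title names this time point, which gave 3 old and 3 young of the 36 libraries in the series. All were from the inbred strain C57BL/6JN, and the submitters name the old animals as the treated group. The labels give no unit for 72 and do not say how regeneration was started, nor the sex of the animals. The RNA was total RNA from frozen tissue, treated with DNase and depleted of ribosomal RNA, so unspliced and non-polyadenylated transcripts could be counted as well. ERCC spike-in mixes are described, but the tables hold 0 ERCC rows and give no scale of absolute amounts. In bulk tissue fewer cells of a type and less RNA per cell cannot be told apart.

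The liver regrows after loss of tissue mainly through division of its hepatocytes, which leave quiescence, copy their DNA and divide in a wave. Sinusoidal endothelial cells, Kupffer cells (the resident macrophages) and stellate cells surround them, send growth signals and rebuild the vessels and the matrix. Stellate cells and portal fibroblasts are the main makers of fibrillar collagen in the liver, and mesothelial cells form the thin sheet that covers the organ.

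The 6 libraries held 3730281 to 4863794 counts (median 4413731). Hepatocyte markers were abundant in all of them, with a summed level (in CPM, counts scaled by normalised library size) of 15479 to 20962 CPM in young and 16526 to 18893 CPM in old libraries. A split that the labels do not give ran through both ages. Young replicate 3 and old replicate 3 held transcripts of Y-linked genes, at 217 and 180.1 CPM, and the other 4 libraries held none. Xist ran the opposite way, with 2582, 2956 and 0.77 CPM in the young and 3155, 3173 and 1.37 CPM in the old libraries. Results that differ across this split are given for the 2 against 2 libraries without Y-linked transcripts and for the 1 against 1 with them.

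At 72 the livers of the ages were hard to tell apart gene by gene. Of 13436 genes tested, edgeR called 0 at an adjusted p under 0.05 (0% of those tested). The smallest adjusted p was 0.0651. An unadjusted p under 0.05 was reached by 668 genes (4.97%), of which 304 were higher in old (2.26%) and 364 lower (2.71%). DESeq2, the other tool run, called 16, with 5 higher and 11 lower in old. The values of the 3 old libraries lay wholly above those of the 3 young for 528 genes (3.93%) and wholly below for 606 (4.51%). Over the 10736 genes with at least 5 CPM, the median 95% interval of a single gene reached 0.46 on the log2 scale to either side.

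Gene lists by function were described by their medians. Of the 48 lists with tested members, the matrix and stellate list had the lowest median log2 difference, at -0.67, and the interferon-stimulated list the highest, at 0.77. The median over all tested genes was 0.01. The matrix median was -0.97 without young replicate 3 and -0.48 without young replicate 2. The interferon median was -0.25 without old replicate 3.

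**Figure D1:**
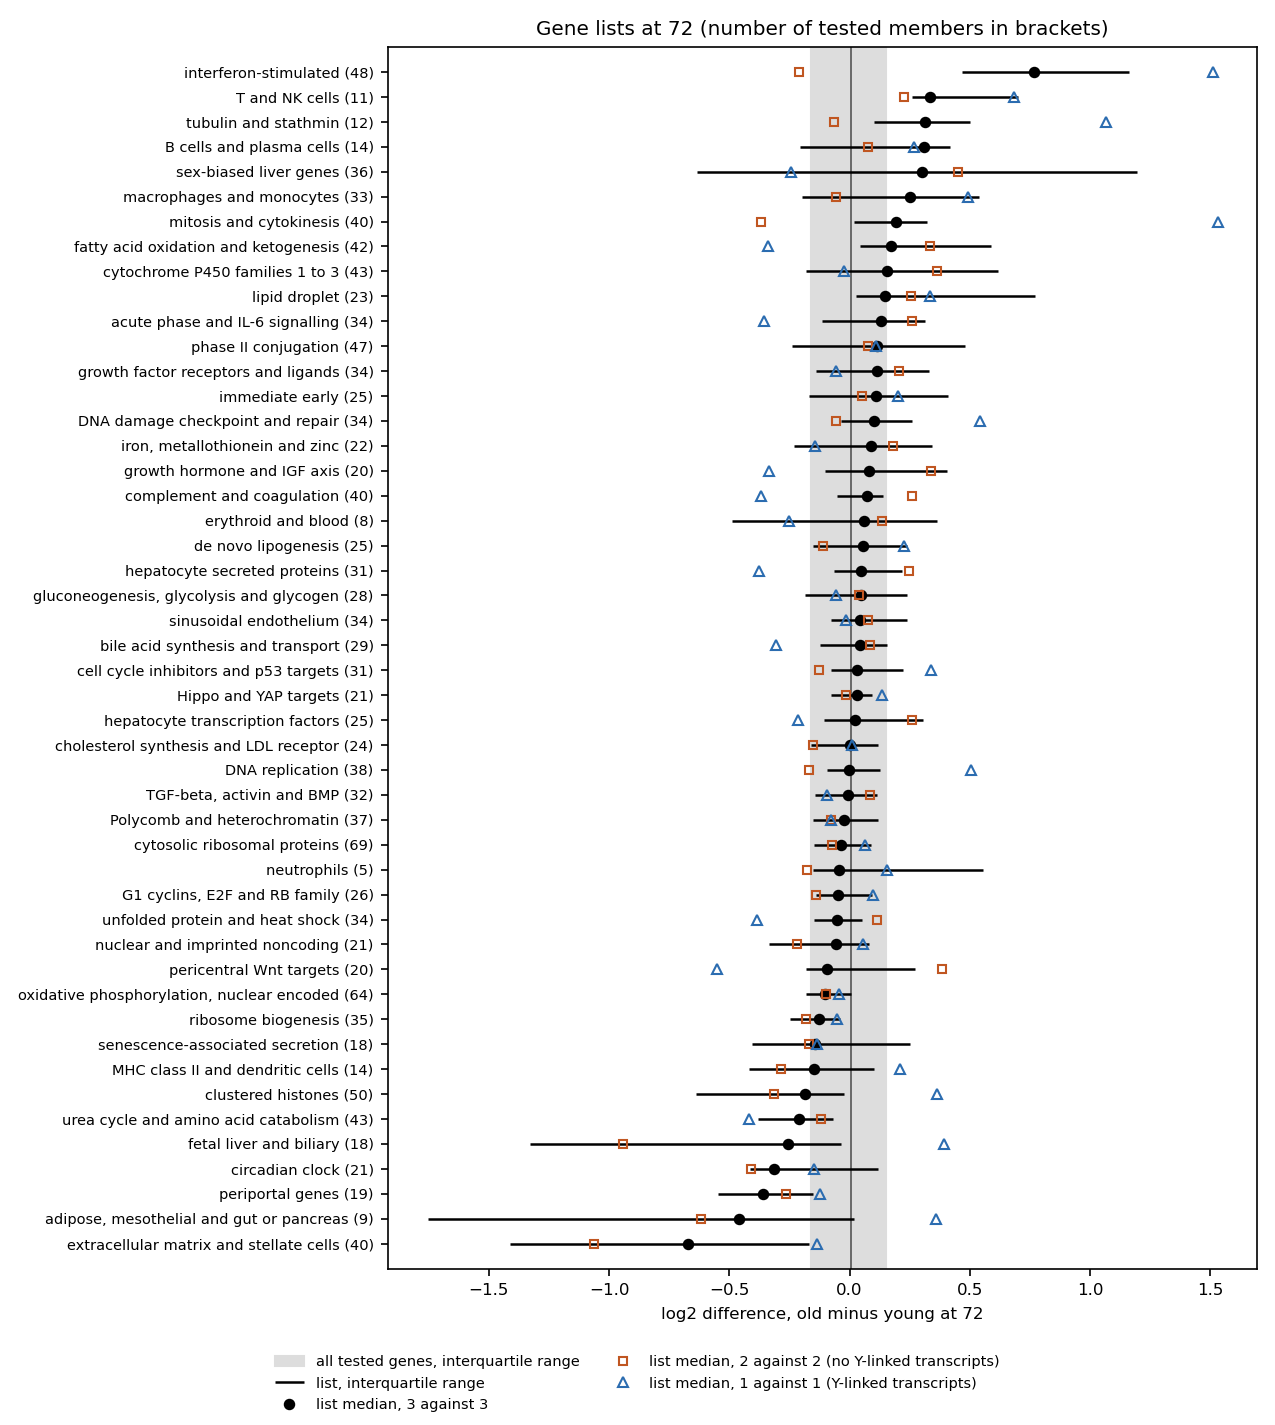
Median log2 difference, old minus young at 72, of each gene list (black points, with the interquartile range of its members as lines), beside the medians in the 2 against 2 libraries without Y-linked transcripts (squares) and the 1 against 1 with them (triangles). The grey band is the interquartile range of all tested genes (-0.16 to 0.15). The matrix list is at the bottom and the interferon list at the top. Medians of several other lists also lie outside the band, such as periportal genes at -0.36 and T and NK cells at 0.34.

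Most genes of the extracellular matrix had lower values in old livers. Of 40 tested members of the matrix and stellate list, 20 were lower and 1 higher at an unadjusted p under 0.05, against 2.71% and 2.26% of all genes, and 0 were called after adjustment by edgeR. DESeq2 called 4, Col1a1 (adjusted p = 0.000981), Col1a2 (0.00123), Col3a1 (0.00123) and Fbn1 (0.0219), all lower. In 13 of the 40 members all old values lay below all young values, against 4.51% of all genes. In 1 member they all lay above, against 3.93%. Col1a1, which encodes a chain of type I collagen, stood at 233, 179.9 and 27.5 CPM in the young and 12.1, 22.00 and 16.8 CPM in the old libraries (log2 difference -3.12 ± 0.64 (SE), edgeR adjusted p = 0.0651). All 3 old values were below all young values, but young replicate 3 lay close to the old libraries and far below the other young ones. Col1a2, the partner chain, had 74.4, 72.7 and 17.3 CPM in the young and 10.9, 8.19 and 7.85 CPM in the old libraries (log2 difference -2.61 ± 0.54 (SE), edgeR adjusted p = 0.0651). Col3a1, type III collagen, had 301, 303 and 57.3 CPM in the young and 36.3, 46.1 and 42.5 CPM in the old libraries (log2 difference -2.40 ± 0.51 (SE), edgeR adjusted p = 0.0681). The same order held in each of these 3 collagens, with young replicates 1 and 2 high and the other 4 libraries low.

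Other fibrillar and microfibril genes had the same arrangement. Fbn1, the scaffold of elastic microfibrils, had 28.9, 36.5 and 11.5 CPM in the young and 7.39, 7.96 and 11.7 CPM in the old libraries. Eln, elastin itself, had 6.31, 13.6 and 4.33 CPM in the young and 1.23, 2.34 and 0.957 CPM in the old libraries (log2 difference -2.42 ± 0.68). Lox, which cross-links collagen and elastin, had 8.99, 23.3 and 1.78 CPM in the young and 0.821, 1.40 and 0.957 CPM in the old libraries (log2 difference -3.40 ± 0.97). In Fbn1 young replicate 3 fell inside the old range, and in Eln and Lox it stayed just above it. The type VI chains Col6a1 and Col6a2, which form beaded filaments around cells, were also lower, with log2 differences of -1.22 ± 0.33 and -1.35 ± 0.42, as were Lum, a small leucine-rich proteoglycan, at -1.23 ± 0.38, and Mmp2, a gelatinase, at -1.24 ± 0.39. Timp1, an inhibitor of matrix metalloproteinases, was near the limit of counting, with 1.15, 2.43 and 1.27 CPM in the young and 0, 0.702 and 0.191 CPM in the old libraries. The member above its young values was Ecm1, which hepatocytes also make, with 51.2, 39.4 and 46.3 CPM in the young and 75.9, 55.9 and 63.9 CPM in the old libraries.

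Other members of the list did not follow the collagens. Dcn, decorin, a matrix proteoglycan of the same class as Lum, differed by -0.01 ± 0.24, Lrat, the enzyme that stores retinol in quiescent stellate cells, by -0.27 ± 0.30, Pdgfrb by -0.19 ± 0.28 and Reln by -0.04 ± 0.28 on the log2 scale. The 6 defining stellate markers summed to 249.5, 310.2 and 234 CPM in the young and 267, 251 and 202 CPM in the old libraries, and the ranges overlapped. The gene of fibronectin, Fn1, which hepatocytes express strongly, differed by 0.08 ± 0.23. The values of the ages overlapped in all 5 genes. Markers of the mesothelium did separate the ages. Msln, Upk3b and Wt1 together stood at 15.6, 11.04 and 15.1 CPM in the young and 2.91, 5.20 and 2.34 CPM in the old libraries, without overlap, and Msln alone had 4.59, 4.62 and 6.36 CPM in the young and 0.821, 1.17 and 0.383 CPM in the old libraries. The part of these mesothelial transcripts in the matrix result was not tested.

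The level of the whole matrix list, its mean log2(CPM + 1), was 5.01, 5.28 and 4.19 in young replicates 1 to 3 and 4.04, 4.20 and 4.09 in old replicates 1 to 3. Young replicate 3 was the lowest of its group in 34 of 40 members, and in 28 members both of the other young libraries lay above all old ones. The shares of all genes with these orders were not counted, so the 34 and the 28 have no background. In the 2 against 2 libraries without Y-linked transcripts the list median, taken from the library values without a refit, was -1.06, and in the 1 against 1 with them -0.13. Fitted without young replicate 3, edgeR called 20 genes, of which 19 were lower in old and 7 belonged to this list, with Col1a1, Col1a2 and Col3a1 each at an adjusted p of 0.00558. The unadjusted counts in the list were then 23 lower and 1 higher, against 515 and 377 over all genes of that fit. Without young replicate 2 they were 12 and 0, against 282 and 278 over all genes, and 0 members were called.

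**Figure D2:**
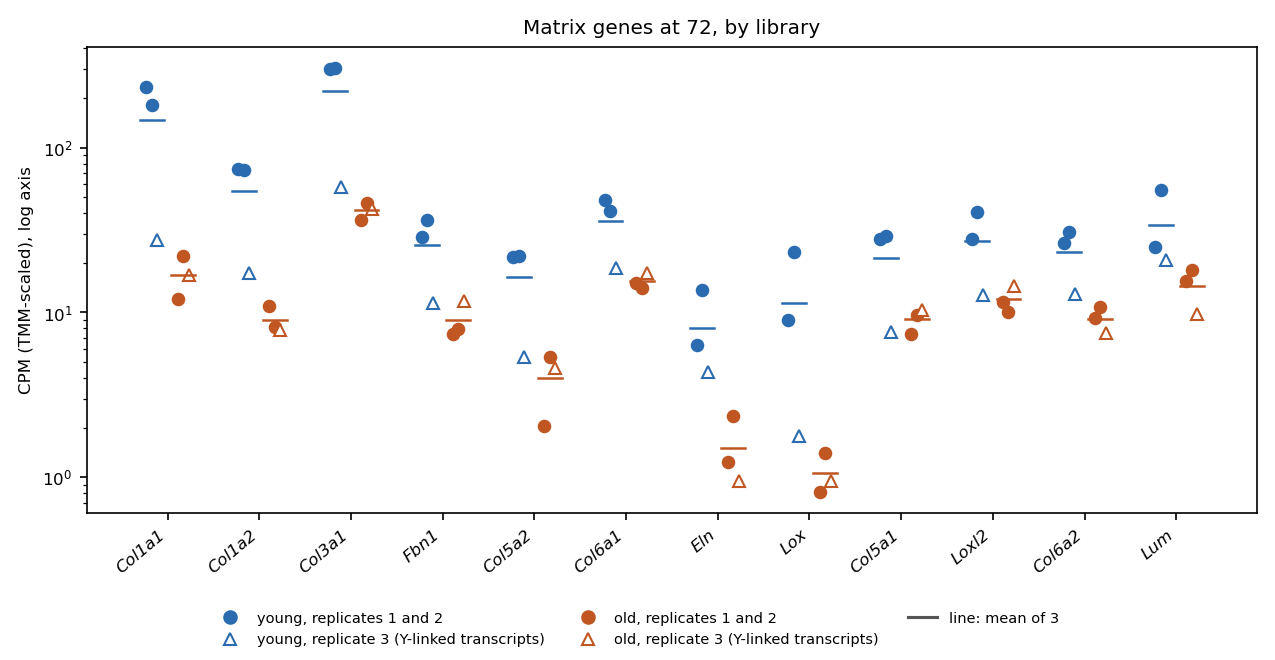
CPM on a log axis in each of the 6 libraries at 72 for the 12 matrix list members with the smallest p (young blue, old orange, lines for the mean of 3, open triangles for the replicate 3 libraries with Y-linked transcripts). Young replicates 1 and 2 stand above the old libraries in each gene shown, while young replicate 3 lies near or within the old values.

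The promoters of the type I and type III collagen genes are shown because these members carry the largest differences among well-counted matrix genes. The windows are the 200 bases before the start of the gene in RefSeq (build GRCm38.p6), chr6:4505418-4505617, plus strand for Col1a2 and chr1:45311338-45311537, plus strand for Col3a1, with any CCAAT box (CCAAT on either strand) in capitals. RefSeq windows were matched for 24 of the 40 tested members.
Col1a2: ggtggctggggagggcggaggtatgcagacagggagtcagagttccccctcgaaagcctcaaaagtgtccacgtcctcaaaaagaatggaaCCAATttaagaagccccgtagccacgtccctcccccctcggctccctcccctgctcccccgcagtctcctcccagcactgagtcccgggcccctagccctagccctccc
Col3a1: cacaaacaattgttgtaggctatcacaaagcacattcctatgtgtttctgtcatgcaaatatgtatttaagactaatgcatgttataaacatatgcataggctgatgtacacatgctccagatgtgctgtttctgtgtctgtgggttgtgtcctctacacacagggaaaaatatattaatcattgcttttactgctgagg
The Col1a2 window holds 1 box, which begins 109 bases before the start, and the Col3a1 window holds 0. Of the matched members 10 hold the letters (41.7%), against 36.4% of all tested genes with a window and 29.3% of all 32851 windows. The share in the list is thus close to the share in general.

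Outside the list, the lower genes with the smallest p had varied roles. Ptgfrn, a membrane protein of the immunoglobulin superfamily, had the smallest p of all, with 35.8, 43.02 and 29.01 CPM in the young and 13.3, 15.7 and 13.4 CPM in the old libraries (log2 difference -1.35 ± 0.25 (SE), edgeR adjusted p = 0.0651). Grb10, an imprinted adaptor that binds the insulin receptor, had 20.6, 37.2 and 14.5 CPM in the young and 8.21, 9.83 and 7.85 CPM in the old libraries (log2 difference -1.48 ± 0.29 (SE), edgeR adjusted p = 0.0651). In both genes young replicate 3 was the lowest young library but lay clearly apart from the old ones, and Ptgfrn was lower both in the 2 against 2 libraries (log2 -1.38) and in the 1 against 1 (log2 -1.06). Sparc, a collagen-binding matricellular protein, had 219, 321 and 135 CPM in the young and 92.2, 113 and 104 CPM in the old libraries (log2 difference -1.13 ± 0.26). Ccdc80, a secreted matrix protein, differed by -1.31 ± 0.28, the collagen receptor Ddr1 by -1.34 ± 0.33 and the type VIII collagen gene Col8a1 by -2.10 ± 0.55. Pls1, an actin-bundling plastin of epithelial cells, had 5.16, 25.3 and 5.60 CPM in the young and 1.23, 1.64 and 4.02 CPM in the old libraries, and Tceal8 had 35.6, 53.7 and 42.5 CPM in the young and 14.98, 25.98 and 16.3 CPM in the old libraries. None of these had overlapping values, which the rule that named them required, and edgeR called none in the fit of all libraries. DESeq2 called 5 of them, Ptgfrn (adjusted p = 0.000981), Grb10 (0.00234), Ccdc80 (0.0102), Sparc (0.0219) and Pls1 (0.0296).

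A few genes of the macrophage and the fetal and biliary lists were high in young replicates 1 and 2 only. The macrophage and monocyte list as a whole leaned the other way, with 23 of 33 members positive against 51.0% of all genes and a median of 0.25. At an unadjusted p under 0.05, 3 of its members were higher and 2 lower, against 2.26% and 2.71%. Without old replicate 3 that median was 0.01 with 19 positive. Gpnmb, a glycoprotein of lipid-laden macrophages, stood at 21.6, 21.6 and 0.509 CPM in the young and 0.41, 0.468 and 0.383 CPM in the old libraries (edgeR adjusted p = 0.282). Ccr2, the receptor that draws monocytes into tissue, had 8.99, 19.7 and 4.33 CPM in the young and 4.72, 4.21 and 4.21 CPM in the old libraries. Spp1, osteopontin, which bile duct cells and activated macrophages secrete, had 101, 261 and 23.7 CPM in the young and 19.5, 21.8 and 36.6 CPM in the old libraries (log2 difference -2.30 ± 0.60 (SE), edgeR adjusted p = 0.282). Sox4, a progenitor transcription factor, had 18.9, 26.01 and 5.34 CPM in the young and 5.34, 7.72 and 5.93 CPM in the old libraries, and H19, an imprinted noncoding RNA abundant in fetal liver, had 386, 126 and 5.09 CPM in the young and 25.9, 22.7 and 19.7 CPM in the old libraries. DESeq2 called Spp1 (adjusted p = 0.0349). Young replicate 3 lay inside the old range in Ccr2, Spp1 and Sox4, below it in H19 and just above it in Gpnmb, so these differences rested on the other 2 young libraries. In the fetal and biliary list 6 of 18 members were lower at an unadjusted p under 0.05, against 2.71% of all genes. The 1 member higher at that p was Afp, against 2.26% of all genes. The list median was -0.94 without and 0.39 with the Y-linked transcripts.

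Afp was higher in the old libraries. This gene, for alpha-fetoprotein, the fetal counterpart of albumin, had 4.02, 4.86 and 7.89 CPM in the young and 17.03, 25.04 and 13.8 CPM in the old libraries (log2 difference 1.74 ± 0.50 (SE), edgeR adjusted p = 0.38), and all old values were above all young values. Alb, albumin, had 6929, 8724 and 8904 CPM in the young and 7449, 9267 and 7827 CPM in the old libraries, with a 95% interval of the log2 difference from -0.47 to 0.46. Ly6d, a surface antigen, overlapped between the ages, with 21.2, 127 and 20.9 CPM in the young and 111, 28.1 and 76.8 CPM in the old libraries. Afp stayed far below Alb in every library. With the libraries with Y-linked transcripts left out, edgeR called Afp (log2 difference 2.24, adjusted p = 0.014).

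Interferon-stimulated genes are switched on when type I or type II interferon reaches a cell, and their products block viral replication or amplify the signal. Their list had the highest median, 0.77, and 12 of 48 members were higher at an unadjusted p under 0.05 (2.26% of all genes), while 0 were lower (2.71% of all genes). These higher values came from old replicate 3. The radical SAM enzyme Rsad2 had 17.97, 28.9 and 23.2 CPM in the young and 20.5, 15.9 and 288 CPM in the old libraries. Isg15, the ubiquitin-like modifier, had 17.4, 43.3 and 25.5 CPM in the young and 17.4, 18.3 and 344 CPM in the old libraries. Irf7, which drives further interferon production, had 58.1, 90.7 and 69.99 CPM in the young and 70.4, 47.3 and 512 CPM in the old libraries. Old replicate 3 was the highest of the 6 libraries in 45 of 48 members, while old replicates 1 and 2 lay inside or below the young range in Rsad2 and Isg15. In Mx1, an antiviral GTPase, they lay below it, with 3.82, 5.83 and 2.29 CPM in the young and 1.85, 1.17 and 57.2 CPM in the old libraries.

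The level of the interferon list was 4.28, 4.67 and 4.44 in young and 4.25, 4.24 and 6.22 in old replicates 1 to 3. Without old replicate 3, 0 members were higher and 1 lower at an unadjusted p under 0.05, and the median was -0.25. Over all genes that fit gave 403 higher and 415 lower. None of the 12 members had values that separated the ages. Ifi27 and Gbp5 did so without reaching that p, with 21.6, 15.6 and 19.6 CPM in the young and 23.6, 26.4 and 67.4 CPM in the old libraries for Ifi27 and 4.21, 4.37 and 4.33 CPM in the young and 5.34, 5.15 and 9.76 CPM in the old libraries for Gbp5. Trim30d, a TRIM family gene, was among the higher genes with non-overlapping values, at 11.9, 9.97 and 10.9 CPM in the young and 19.3, 19.4 and 63.9 CPM in the old libraries, and it too was highest in old replicate 3. Kupffer cell markers in this library summed to 687 CPM, between the 790.0 and 405 CPM of the other old libraries.

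**Figure D3:**
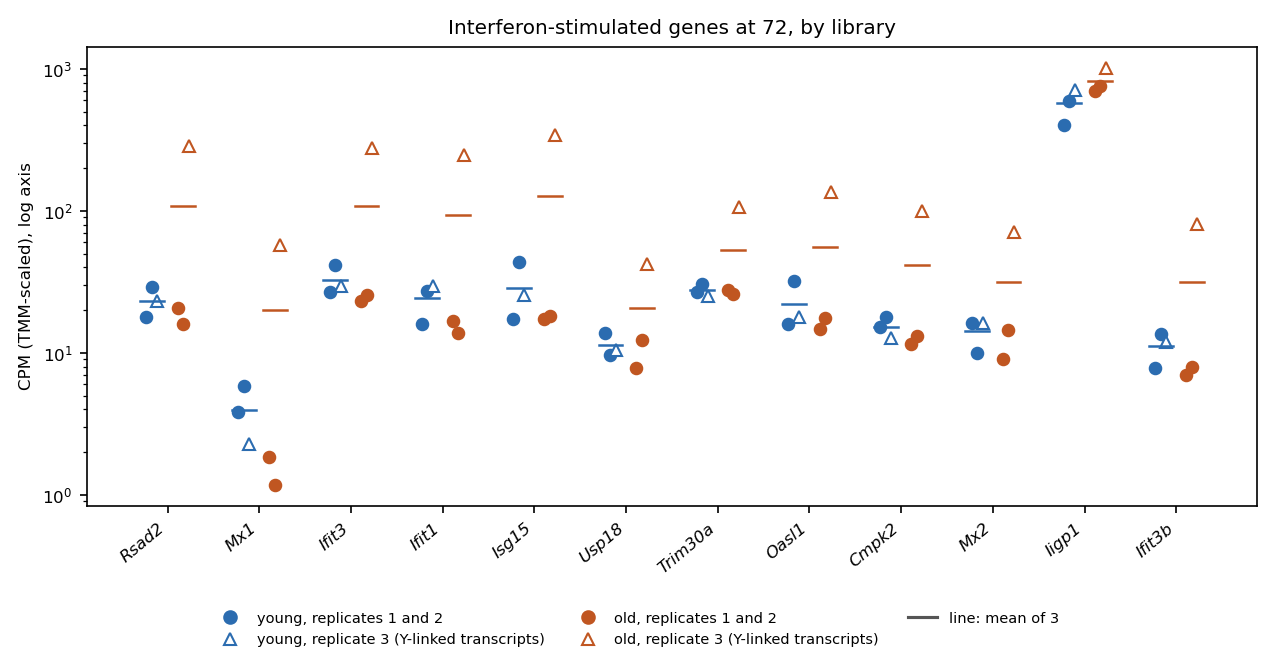
CPM on a log axis in each of the 6 libraries at 72 for the 12 interferon list members with the smallest p (symbols and colours by age and replicate, lines for the mean of 3). Old replicate 3, the open orange triangle, stands above the other 5 libraries in every gene shown.

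Promoters of 4 interferon-stimulated genes are shown because these members were high together in a single library of this comparison. Their windows are again the 200 bases before the RefSeq start (GRCm38.p6): chr4:156200819-156201018, minus strand for Isg15, chr19:34640689-34640888, plus strand for Ifit1, chr19:34583329-34583528, plus strand for Ifit3 and chr12:26456453-26456652, minus strand for Rsad2. Capitals mark the interferon response pattern, a pair of TTTC repeats with any 2 bases between them, on either strand (GAAA on the reverse), with overlapping matches joined.
Isg15: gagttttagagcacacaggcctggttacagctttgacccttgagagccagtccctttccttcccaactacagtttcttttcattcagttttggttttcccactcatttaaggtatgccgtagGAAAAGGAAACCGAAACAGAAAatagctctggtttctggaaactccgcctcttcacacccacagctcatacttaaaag
Ifit1: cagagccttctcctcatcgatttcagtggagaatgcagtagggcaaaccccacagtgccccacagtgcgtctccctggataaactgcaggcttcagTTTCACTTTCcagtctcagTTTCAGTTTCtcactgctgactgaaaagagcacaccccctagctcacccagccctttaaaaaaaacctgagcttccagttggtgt
Ifit3: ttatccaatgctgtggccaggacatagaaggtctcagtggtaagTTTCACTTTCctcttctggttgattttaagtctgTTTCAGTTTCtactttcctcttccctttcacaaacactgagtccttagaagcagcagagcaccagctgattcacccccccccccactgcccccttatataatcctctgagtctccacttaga
Rsad2: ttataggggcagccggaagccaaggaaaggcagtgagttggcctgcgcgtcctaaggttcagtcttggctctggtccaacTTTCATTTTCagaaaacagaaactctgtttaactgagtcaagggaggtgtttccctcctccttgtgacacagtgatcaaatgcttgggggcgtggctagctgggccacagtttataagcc
Isg15 holds 3 overlapping matches on the reverse strand, Ifit1 and Ifit3 hold 2 each and Rsad2 holds 1. The pattern occurs in 16 of the 35 list members that matched a window (45.7%), in 2.40% of tested genes with a window and in 2.27% of all windows. The match is a description of sequence and was not tested as a binding site.

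Genes of cell division did not separate the ages at 72. Mki67, the classic marker of cycling cells, had 1166, 1694 and 425 CPM in the young and 577, 1364 and 1100.4 CPM in the old libraries (log2 difference -0.11 ± 0.71). Top2a, which untangles chromosomes, had 155, 192 and 40.2 CPM in the young and 89.3, 156 and 118 CPM in the old libraries, and Ccnb1, the mitotic cyclin, had 20.3, 22.6 and 8.40 CPM in the young and 13.8, 43.1 and 34.1 CPM in the old libraries. Cdk1, its kinase partner, had 17.6, 18.2 and 2.29 CPM in the young and 8.83, 17.6 and 18.4 CPM in the old libraries. Within each age the libraries differed several-fold, with young replicate 3 the lowest of all 6 in 38 of the 40 mitosis genes and old replicate 2 the highest in 25. None of these 40 genes reached an unadjusted p under 0.05, against 4.97% of all genes. The list level was 5.21, 5.27 and 3.62 in young and 4.37, 5.47 and 5.15 in old replicates 1 to 3. Its median log2 difference of 0.19 turned to -0.37 in the 2 against 2 libraries and was 1.53 in the 1 against 1.

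The DNA replication list likewise had 0 members higher and 0 lower at that p among 38. Mcm2, a subunit of the replicative helicase, had 27.9, 38.2 and 19.6 CPM in the young and 46.8, 23.9 and 32.7 CPM in the old libraries. Mcm7 of the same helicase was the 1 member without overlap, at 40.7, 42.5 and 25.2 CPM in the young and 53.2, 44.7 and 49.4 CPM in the old libraries. Cdkn1a, the p21 inhibitor of cyclin-dependent kinases, had 31.2, 61.2 and 29.8 CPM in the young and 39.6, 43.5 and 73.3 CPM in the old libraries. Ezh2, the Polycomb methyltransferase, had 19.1, 20.9 and 8.91 CPM in the young and 13.3, 20.8 and 13.2 CPM in the old libraries. The Cdkn1a and Ezh2 values of the ages overlapped. Gadd45a, a stress-induced gene of the p53 list, had 11.7, 12.9 and 14.00 CPM in the young and 43.3, 81.9 and 13.2 CPM in the old libraries (log2 difference 1.84 ± 0.64), high in old replicates 1 and 2 and at the young level in old replicate 3.

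Clustered histone genes, which are read mainly in S phase and whose transcripts mostly lack a poly(A) tail, were lower in 7 of 50 tested members at an unadjusted p under 0.05 and higher in 0, against 2.71% and 2.26% of all genes. The linker histone gene Hist1h1b had 60.2, 136 and 31.3 CPM in the young and 27.3, 21.1 and 12.1 CPM in the old libraries (log2 difference -1.91 ± 0.54). Hist1h2bn, a core H2B gene, had 11.7, 51.8 and 9.16 CPM in the young and 5.34, 6.79 and 2.68 CPM in the old libraries, and Hist1h4k, a core H4 gene, had 11.7, 20.9 and 11.7 CPM in the young and 6.36, 5.38 and 2.87 CPM in the old libraries. These 3 had no overlap between the ages. Young replicate 2 was the highest library in 45 of the 50 members. Without it the list median went from -0.19 to 0.43. In that fit 2 members were lower and 1 higher, against 282 and 278 over all genes. Histone genes are near-identical copies, so counts may be split among them.

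In the Polycomb and heterochromatin list 5 of 37 members lay wholly below the young values, against 4.51% of all genes, and 0 lay above. Rnf2, the catalytic ubiquitin ligase of Polycomb complex 1, had 37.1, 37.7 and 30.8 CPM in the young and 29.96, 25.7 and 27.8 CPM in the old libraries (log2 difference -0.34 ± 0.13). Tet1, an oxidase of methylated DNA, had 2.10, 2.67 and 2.04 CPM in the young and 0.41, 1.40 and 0.383 CPM in the old libraries, and its relative Tet3 had 103, 84.6 and 87.8 CPM in the young and 72.04, 73.7 and 77.3 CPM in the old libraries. The list median was -0.02 against 0.01 over all genes.

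Hepatocyte metabolism differed in small steps. In the list of urea cycle and amino acid catabolism 36 of 43 members had a negative log2 difference, against 48.9% of all genes, with a median of -0.21. At an unadjusted p under 0.05, 3 were lower and 0 higher, against 2.71% and 2.26% of all genes. Tat, the first enzyme of tyrosine breakdown, had 1695, 1293 and 1701 CPM in the young and 819.5, 582 and 1109 CPM in the old libraries (log2 difference -0.90 ± 0.37 (SE), edgeR adjusted p = 0.882). Sds, serine dehydratase, had 211, 65.9 and 129 CPM in the young and 32.02, 45.6 and 96.5 CPM in the old libraries, and Hgd, of tyrosine and phenylalanine breakdown, had 94.8, 55.4 and 83.7 CPM in the young and 38.6, 56.2 and 53.6 CPM in the old libraries. Tat separated the ages and the other two overlapped. The list median was -0.12 in the 2 against 2 libraries and -0.42 in the 1 against 1. Etnppl, a periportal phospholyase, had 97.5, 27.7 and 89.6 CPM in the young and 15.4, 25.98 and 25.7 CPM in the old libraries, wholly lower, and the periportal list had a median of -0.36 with 16 of 19 members negative against 48.9%. Without young replicate 1 that median was -0.22 with 12 negative, and without young replicate 3 it was -0.21. For the urea cycle and amino acid list it was -0.37 without old replicate 2.

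Of the de novo lipogenesis list 1 of 25 members was higher and 1 lower at an unadjusted p under 0.05, near the 2.26% and 2.71% of all genes. Srebf1, the master transcription factor of fatty acid synthesis, had 354, 249 and 283 CPM in the young and 111, 183 and 165 CPM in the old libraries (log2 difference -0.95 ± 0.31 (SE), edgeR adjusted p = 0.527), wholly lower in old. Acacb, the mitochondrial acetyl-CoA carboxylase, had 45.1, 29.2 and 35.6 CPM in the young and 82.3, 62.2 and 52.8 CPM in the old libraries, wholly higher. Fasn, fatty acid synthase, overlapped at 735, 756 and 665 CPM in the young and 353, 701 and 1396 CPM in the old libraries. In fatty acid oxidation and ketogenesis 35 of 42 members were positive against 51.0% of all genes, and old replicate 1 was the highest library in 31 of them. Fgf21, a fasting hormone of the liver, stood at 1.15, 3.40 and 2.80 CPM in the young and 72.7, 0.936 and 0.957 CPM in the old libraries, high in that library only. Without old replicate 1 the list had 21 positive members and a median of -0.01. Vnn1, a pantetheinase induced by fasting, had 17.97, 87.7 and 92.4 CPM in the young and 202, 123 and 104 CPM in the old libraries, and Apoa4, an apolipoprotein, had 1736, 1479 and 1974 CPM in the young and 5649.9, 2043 and 2744 CPM in the old libraries, both without overlap.

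Other metabolic landmarks overlapped between the ages. Cyp7a1, the rate-limiting enzyme of bile acid synthesis, had 432, 533 and 1584 CPM in the young and 124, 540.3 and 331 CPM in the old libraries. Pck1 of gluconeogenesis had 3294, 2854 and 4133 CPM in the young and 3207, 2029.8 and 3728 CPM in the old libraries, and G6pc, its last step, had 320.1, 215 and 436 CPM in the young and 289, 199.8 and 123 CPM in the old libraries. Cyp7a1 was highest in young replicate 3, Pck1 lowest in old replicate 2 and G6pc lowest in old replicate 3. Cyp2e1, a pericentral cytochrome P450, had 575, 1030.0 and 2309.9 CPM in the young and 1443, 954 and 1058 CPM in the old libraries, and Igf1, the growth hormone target, had 774, 919.7 and 1064 CPM in the young and 1096, 753 and 589.8 CPM in the old libraries. None of these 5 reached an unadjusted p under 0.05. The hepatocyte transcription factor list had a median of 0.02, with 14 of 25 members positive against 51% of all genes. Of its members 2 were wholly higher and 1 wholly lower, against 3.93% and 4.51% of all genes. Among hepatocyte transcription factors Foxa2 had 37.3, 37.4 and 43.8 CPM in the young and 48.6, 75.6 and 57.1 CPM in the old libraries (log2 difference 0.61 ± 0.19) and Hnf4a had 1165, 1082 and 1364 CPM in the young and 1384, 1595 and 1481 CPM in the old libraries (log2 difference 0.30 ± 0.13), both wholly higher in old, while Nr2f2, a nuclear receptor of endothelium and liver, had 103, 107 and 109 CPM in the young and 87.8, 80.3 and 75.6 CPM in the old libraries and was wholly lower. Slc30a10, a manganese exporter, had 44.2, 55.9 and 42.8 CPM in the young and 107, 109.8 and 56.3 CPM in the old libraries, again wholly higher.

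Resident immune and endothelial genes gave a mixed picture. Fcna, ficolin A, a lectin that Kupffer cells secrete, had 36.1, 40.1 and 50.6 CPM in the young and 105, 65.1 and 87.3 CPM in the old libraries (log2 difference 1.02 ± 0.26). Cd207, langerin, had 4.78, 2.92 and 2.80 CPM in the young and 9.85, 10.3 and 12.3 CPM in the old libraries, and Ccl6, a macrophage chemokine, had 15.3, 17.7 and 10.4 CPM in the young and 38.8, 19.7 and 28.1 CPM in the old libraries. All 3 were wholly higher in old livers. In the macrophage and monocyte list 3 of 33 members were wholly higher and 1 wholly lower, against 3.93% and 4.51% of all genes. Clec4f, the lectin that defines Kupffer cells, overlapped at 103, 146 and 158 CPM in the young and 258, 152 and 182 CPM in the old libraries, and the Kupffer markers together summed to 380.4, 469.6 and 420.5 CPM in young and 790.0, 405 and 687 CPM in old libraries. The T and NK list had 10 of 11 members positive against 51.0% of all genes, and 1 was higher at an unadjusted p under 0.05 against 2.26%. That member was Prf1, perforin, at 0.956, 0.243 and 0.509 CPM in the young and 9.24, 1.17 and 1.91 CPM in the old libraries, and the defining T and NK cell markers summed to at most 2.94 CPM in any of the 6 libraries. In the endothelium Stab2, a scavenger receptor of sinusoids, had 56.8, 44.7 and 51.9 CPM in the young and 53.4, 57.6 and 50.2 CPM in the old libraries, Plvap, of fenestral diaphragms, had 96.6, 121 and 111 CPM in the young and 181, 137 and 138 CPM in the old libraries, and Emcn had 1.91, 4.13 and 1.53 CPM in the young and 1.44, 1.17 and 1.15 CPM in the old libraries. Plvap was wholly higher and Emcn wholly lower in old, and Stab2 overlapped. In the sinusoidal endothelium list 2 of 34 members were wholly higher and 2 wholly lower, near the 3.93% and 4.51% of all genes. The median of that list was 0.04.

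The remaining higher genes with the smallest p had no shared list. Pcdh11x, a protocadherin on the X chromosome, had 1.91, 1.46 and 0.764 CPM in the young and 5.75, 5.15 and 44.4 CPM in the old libraries (log2 difference 3.69 ± 0.71 (SE), edgeR adjusted p = 0.0651), with old replicate 3 far above the rest. Ccdc171 had 11.1, 4.13 and 7.38 CPM in the young and 19.3, 16.1 and 20.3 CPM in the old libraries (log2 difference 1.28 ± 0.29 (SE), edgeR adjusted p = 0.102), and Pcsk6, a proprotein convertase, had 55.8, 70.00 and 78.1 CPM in the young and 118, 113 and 81.4 CPM in the old libraries. Fam46c, a cytoplasmic poly(A) polymerase, had 20.5, 15.3 and 12.2 CPM in the young and 37.97, 33.2 and 28.5 CPM in the old libraries, Odf3b had 5.35, 7.29 and 4.33 CPM in the young and 11.9, 15.2 and 10.9 CPM in the old libraries, Cwf19l1 had 15.5, 11.9 and 14.3 CPM in the young and 19.9, 40.2 and 20.9 CPM in the old libraries and Zfp951 had 2.29, 5.83 and 2.29 CPM in the young and 8.62, 7.02 and 9.96 CPM in the old libraries. By the rule that named them none had overlapping values, and edgeR called none in the fit of all libraries. DESeq2 called Pcdh11x (adjusted p = 0.000981) and Ccdc171 (adjusted p = 0.0214).

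Genes that already differed with age before regeneration mostly had the same direction at 72. The 8 genes that edgeR called in livers before regeneration (0.0595% of those tested) were followed in the libraries at 72, which are separate libraries. Dmrta1, a DM domain transcription factor, had 1.34, 0 and 0.509 CPM in the young and 10.1, 4.45 and 7.08 CPM in the old libraries (adjusted p = 0.0651 by edgeR and 0.000981 by DESeq2). Cdh19, a cadherin, had 0.382, 0 and 0 CPM in the young and 4.72, 1.64 and 1.91 CPM in the old libraries (adjusted p = 0.101). Atp11a, a lipid flippase, had 30.2, 29.2 and 46.8 CPM in the young and 56.03, 86.6 and 53.03 CPM in the old libraries, and Ehbp1l1 had 71.1, 62.2 and 44.03 CPM in the young and 81.5, 98.5 and 88.6 CPM in the old libraries. These 4 and Cd207 were wholly higher in old, the direction they had before, and Adgrf1, an adhesion receptor, was wholly lower, at 7.84, 5.35 and 5.34 CPM in the young and 0.616, 1.87 and 4.79 CPM in the old libraries. Rapgef4 and Ablim3, both lower before, overlapped at 72, with log2 differences of 0.11 ± 0.25 and 0.01 ± 0.20. Over all genes 3.93% were wholly higher and 4.51% wholly lower at 72, and edgeR called none of the 8 there.

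**Figure D4:**
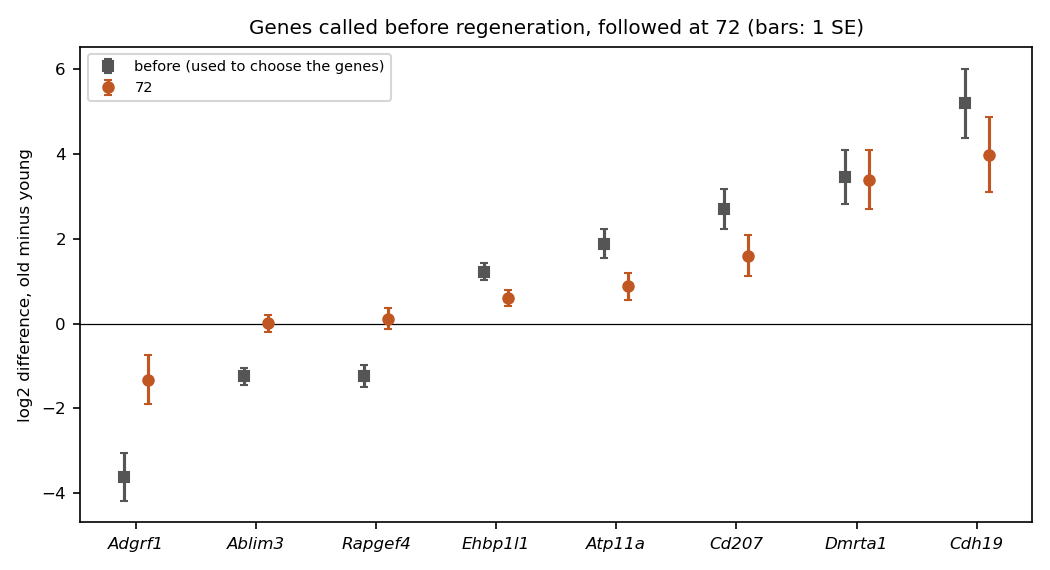
Log2 difference, old minus young, with bars of 1 SE, of the 8 genes called before regeneration (squares, the values that chose them) and of the same genes at 72 (circles). At 72 Adgrf1 stays below 0, Ablim3 and Rapgef4 lie at 0.01 and 0.11, and the other 5 lie above 0.

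The comparison at 72 differed from the one at 48, the time point before it. The age difference itself changed for 320 genes between 48 and 72 (edgeR, 2.38% of 13436), with 260 more positive at 72 (1.94%) and 60 more negative (0.447%). At 48, 1530 genes were called for age (11.4%), and the time points share no libraries. The old libraries at 48 varied most, with a coefficient of variation of 40.65% between replicates, against 24.67% for all groups together. The part of this spread in the calls was not tested. Of the mitosis list 30 of 40 genes were among the 320, all more positive at 72 (1.94% of all genes), with a list median of -3.16 at 48 against 0.19 at 72. The list level at 48 was 6.29, 5.29 and 6.32 in young and 2.66, 1.22 and 4.11 in old replicates 1 to 3, so that at 48 old libraries were below the young and at 72 they overlapped. DNA replication had 9 of 38 and clustered histones 7 of 50 such genes. The 5 with the smallest p in this direction were Cdkn2c, an inhibitor of CDK4 and CDK6, Gas2l3, which acts in cytokinesis, Lin54 of the DREAM complex, the nuclear pore gene Ndc1 and the exonuclease Eri2. Their differences between the age effects were 3.09 ± 0.53, 2.79 ± 0.48, 1.37 ± 0.24, 2.16 ± 0.38 and 2.22 ± 0.38 on the log2 scale (adjusted p = 0.00658 for each).

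Matrix genes among the 320 were more negative at 72. Col1a1 had an age difference of 0.35 ± 0.62 at 48 and -3.12 ± 0.64 at 72, and the change of -3.47 ± 0.88 was called (adjusted p = 0.032). Of the matrix list 6 of 40 members were called, all more negative at 72, against 0.447% of all genes called in that direction. In young libraries the list level was 4.11, 4.12 and 3.98 at 48 and 5.01, 5.28 and 4.19 at 72. In old libraries it was 4.60, 4.36 and 4.14 at 48 and 4.04, 4.20 and 4.09 at 72. Spp1, which at 48 was higher in old livers by 2.03 ± 0.60, was more negative at 72 by -4.34 ± 0.85 (adjusted p = 0.0107), as were Sgk1, a kinase induced by glucocorticoids, at -1.84 ± 0.38, Atrn, attractin, at -1.14 ± 0.24, Secisbp2, of selenoprotein synthesis, at -1.25 ± 0.25 and Flad1, which makes FAD, at -1.37 ± 0.24. The Col1a1 call was lost in 7 of 16 alternatives. The count of 320 was 0 when only the 12 libraries of both time points were fitted, 9 without the libraries with Y-linked transcripts and 39 without old replicate 2 at 72. It was 173 without young replicate 1, 95 without young replicate 3 and 187 without old replicate 3.

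**Figure D5:**
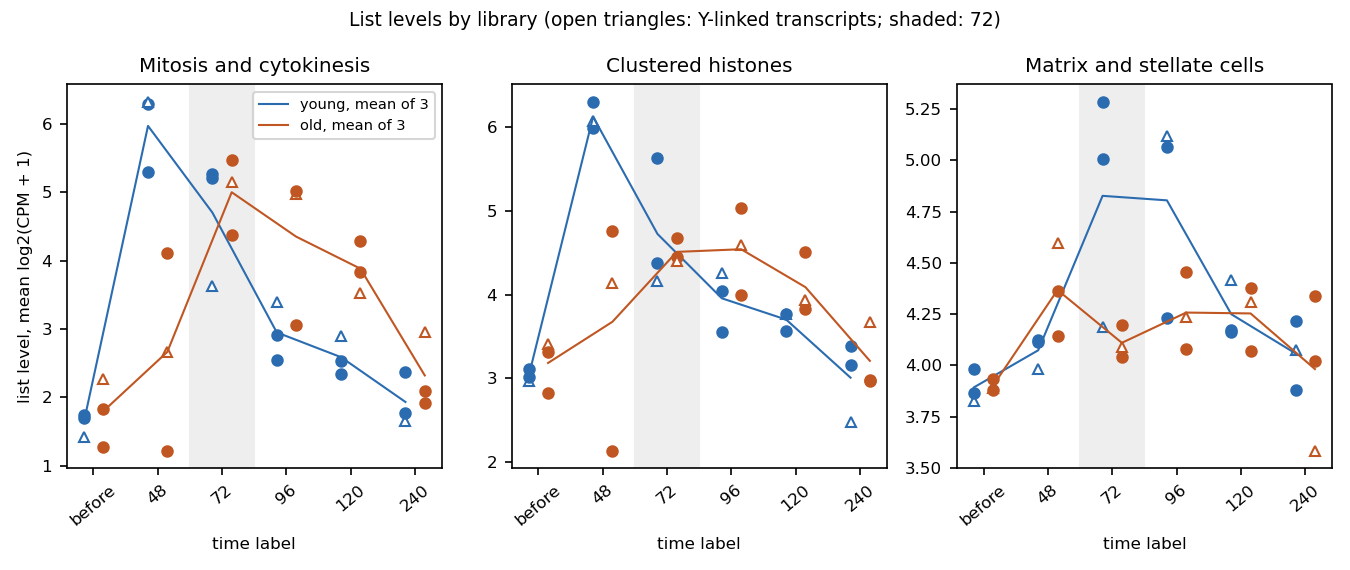
Mean log2(CPM + 1) of the mitosis, clustered histone and matrix lists in every library by time label (young blue, old orange, lines join means of 3, open triangles for libraries with Y-linked transcripts, shading for 72). At 72 the mitosis and histone levels of the ages overlap, while young replicates 1 and 2 stand above every other library at 72 in the matrix list.

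Against the neighbouring time point 96 and the livers before regeneration the age difference at 72 was not shown to differ. For 72 against 96 edgeR called 0 genes with 625 at an unadjusted p under 0.05 (4.65%), and DESeq2 called 0. For 72 against before edgeR called 0 with 626 at that p (4.66%), and DESeq2 called 0. At 96 edgeR called 54 genes for age (0.402%). Matrix genes had negative age differences at 96 as well, with a list median of -0.64 against 0.06 before, and Col1a1 differed by -2.66 ± 0.64 at 96. The list level at 96 was 5.07, 5.12 and 4.23 in young and 4.24, 4.45 and 4.08 in old replicates 1 to 3. There the young library with Y-linked transcripts was replicate 2, one of the pair of high ones. The mitosis list had a median of 1.79 at 96. Across all 13436 genes the age differences at 72 correlated with those at 96 with Pearson's r of 0.445, with those before at 0.224 and with those at 48 at 0.150. These correlations are across genes, which are not independent replicates, and the time points share no libraries.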

How the data were processed

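Per the labels' protocols, total RNA was depleted of ribosomal RNA and sequenced, and the authors deposited whole-number counts per gene symbol, 1 table of 21955 symbols for each library, not normalized. STAR 2.7.5b, featureCounts and builds GRCm38 and mm10 are named in the submitters' processing notes, and how strand was used is not given in the sources used here. Of the symbols 27 read as dates and 0 were mitochondrially encoded. Totals of all 36 libraries ran from 2328233 to 6034446.

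Counts were fitted with edgeR 4.0.16 in R 4.3.3 (quasi-likelihood F test, TMM scaling, filterByExpr on the 12 groups, 13436 genes kept) over all 36 libraries, so the groups shared 1 estimate of spread. P-values were Benjamini-Hochberg adjusted over all tested genes, with calls under 0.05. The standard error is the log2 difference divided by the root of F. CPM uses TMM-scaled totals, and list levels are means of log2(CPM + 1). The titles number replicates 1 to 3 but do not say that they come from separate animals; the series' design text calls them biological replicates.

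Alternatives were DESeq2 1.42.0, scaling by median of ratios or by total counts, a stricter and no filter, only the libraries compared, a replicate block, a term for Y-linked transcripts, thinned counts, a pseudocount of 0.25 and leaving out libraries. The test was tried on simulated counts. Named genes were the 12 higher and 12 lower with the smallest p among those with at least 5 CPM and no overlap, the 3 with the smallest p in each list, the genes called before regeneration, those leading the differences between time points, and a fixed set. Not all of these are described, 1 of the fixed set is not reported here, and further list members were named after their values were seen. The comparison, the lists and the fixed set were chosen with earlier results of these data known.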

Additional observations from a re-analysis of the deposited data

Results flagged for a closer look

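The difference between the age effects at 72 and at 48 stands out because the same contrast of old against young gave different results at the 2 time points by a test of the difference itself. It was called for 320 genes in the edgeR fit of all libraries. Of these, 260 were more positive at 72 and 60 more negative. The count was 0 when only the libraries of both time points were fitted, and the old libraries at 48 varied widely among themselves.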

How the results depend on the processing

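Besides the edgeR result of 0 calls at 72, DESeq2 called 16 genes, a term for Y-linked transcripts gave 17 and leaving out the libraries with them gave 19. Leaving out 1 library gave 0 to 20 calls, with 20 without young replicate 3. For 72 against 48 the 320 calls became 208 with total-count scaling, 148 after thinning, 0 with only the libraries compared and 9 without the libraries with Y-linked transcripts, and 39 to 362 with 1 library left out. The Y-linked term gave 1 call each for 72 against 96 and against before, and leaving those libraries out gave 10 against before. Genes at an unadjusted p under 0.05 at 72 were 615 higher and 632 lower without those libraries, and 239 lower with the stricter filter. Leaving out 1 library gave 247 to 403 higher and 280 to 515 lower. Fewer libraries or genes enter several of these fits, and otherwise the cause was not tested.

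Without the libraries with Y-linked transcripts the refitted matrix median was -1.13, the interferon median -0.24 and the fetal and biliary median -1.12. The last was -0.77 with no filter. With 1 library left out the medians ran over -0.97 to -0.48 (matrix), -0.25 to 1.07 (interferon), -0.45 to 0.43 (histones) and -0.81 to -0.10 (fetal and biliary). Of 768 medians of the 48 lists over all alternatives, 50 moved by more than the spread between replicates.

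Of 1703 values of the genes named for 72 over the alternatives, 64 changed sign. As log2 differences, these were, without the libraries with Y-linked transcripts, Ablim3 -0.064, Alb 0.091, Cdk1 -0.45, Cdkn1a -0.15, Cyp2e1 0.58, Dcn 0.049, Fasn -0.51, Ifit1 -0.50, Ifit3 -0.49, Igf1 0.12, Irf7 -0.34, Isg15 -0.76, Ly6d -0.082, Mx1 -1.63, Rapgef4 -0.059 and Rsad2 -0.35. Thinned counts gave Ablim3 -0.12, Dcn 0.0043 and Ezh2 0.063. The other scaling and filters gave Ablim3 -0.016 by total counts, Ablim3 -0.00071 with the stricter filter and Alb 0.0075 with none. With 1 library left out the ranges were Ablim3 -0.053 to 0.068, Alb -0.11 to 0.061, Cdk1 -0.27 to 0.55, Cyp2e1 -0.53 to 0.52, Dcn -0.20 to 0.14, Ezh2 -0.35 to 0.15, Fasn -0.45 to 0.55, Fgf21 -1.31 to 3.94, Fn1 -0.027 to 0.22, Ifit1 -0.67 to 2.45, Ifit3 -0.42 to 2.21, Igf1 -0.46 to 0.0089, Irf7 -0.31 to 2.00, Isg15 -0.68 to 2.67, Ly6d -0.10 to 1.77, Mcm2 -0.013 to 0.53, Mki67 -0.50 to 0.35, Mx1 -1.37 to 2.89, Pck1 -0.39 to 0.019, Rapgef4 -0.22 to 0.27, Reln -0.22 to 0.14, Rsad2 -0.35 to 2.73, Stab2 -0.017 to 0.15 and Top2a -0.52 to 0.31.

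The replicate numbers of the titles were not shown to pair the libraries. Same-numbered young and old libraries at 72 had a mean correlation of their deviations of 0.0553. With a replicate block edgeR called 4 genes at 72 (Cdh19, Col1a2, Grb10 and Ptgfrn), and the sign turned for Alb 0.00086 and Top2a 0.0034.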

Other observations

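Genes that differ between male and female mouse liver mostly separated the libraries by their Y-linked transcripts. Both libraries with these transcripts lay below the other 4 in 18 of the 36 tested members of the sex-biased list and above them in 16. Among the other 4 libraries, old and young values also stood apart in some members. Cyp3a16, a female-biased cytochrome P450, had 3.06, 2.19 and 0 CPM in the young and 206, 161 and 0 CPM in the old libraries. Cyp3a44, its relative, had 21.2, 35.00 and 9.67 CPM in the young and 436, 384 and 10.9 CPM in the old libraries, and Sult2a1, a bile acid and steroid sulfotransferase, had 2.29, 1.70 and 0 CPM in the young and 33.04, 36.5 and 0.191 CPM in the old libraries. In 13 of the 18 members both old libraries of this kind were above both young ones. The shares of all genes with these orders were not counted, so the 18, the 16 and the 13 cannot be set against a background. With the Y-linked transcripts as a term in the edgeR fit, Sult2a1 was called at log2 4.10 (adjusted p = 1.94e-08) and Cyp3a16 at log2 6.01 (adjusted p = 0.0382). Without that term edgeR gave them adjusted p of 0.981 and 0.918. With the Y-linked libraries left out edgeR called Sult2a1 (adjusted p = 9.55e-05) and did not call Cyp3a16. Members of these families are similar in sequence, so reads may be shared among them.

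Circadian genes were spread widely within the old group. Dbp, an output of the circadian clock, had 22.4, 31.4 and 59.6 CPM in the young and 9.44, 3.98 and 37.1 CPM in the old libraries. Ciart, a repressor of the clock, had 13.2, 9.97 and 26.98 CPM in the young and 2.67, 0.936 and 14.9 CPM in the old libraries, and Arntl, which is expressed in the opposite phase, had 6.50, 5.83 and 2.55 CPM in the young and 9.65, 21.3 and 4.21 CPM in the old libraries. Old replicate 2 was the lowest library in 11 of 21 genes of the circadian list. The hour at which tissue was taken is not given in the labels. Rgs16, a regulator of G protein signalling, had 1.15, 0.243 and 3.82 CPM in the young and 68.1, 13.6 and 5.74 CPM in the old libraries, highest in old replicate 1 (edgeR adjusted p = 0.514).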
